A study of Mus musculus with 6 samples.

Results

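Multiciliated4 is a cluster of multiciliated cells in droplet scRNA-Seq of mouse tracheal epithelial cultures. Its members were all cells to which the authors' cell table gives that cluster name, and they numbered 146 of 23871 cells and of 4823 multiciliated cells. The cultures came from 3 *WT/WT* and 3 *MIS/MIS* mice of the C57BL/6 strain, 12 weeks old. *MIS/MIS* mice carry on both copies of *Dnaaf5* a germline cysteine-to-phenylalanine missense allele made by CRISPR-Cas9, made together with a nearby synonymous change, and *WT/WT* mice carry no edited allele. *Dnaaf5* encodes a cytoplasmic factor for the assembly of axonemal dynein arms. Basal cells of each trachea were expanded, differentiated at air-liquid interface (ALI) and taken off the support with trypsin, so the cells are cultured cells and not cells of the living airway. *WT/WT* mice 1, 2 and 3 gave 22, 6 and 23 Multiciliated4 cells, and *MIS/MIS* mice MT1301, MT1306 and MT1383 gave 20, 52 and 23. The comparison cluster, Multiciliated3, held 2712 cells, with between 173 and 1186 per mouse. The clusters had been made from the expression of these same genes, so the differences between them are given as descriptions with no test.

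A multiciliated cell carries many motile cilia on its apical surface, each built on an axoneme of microtubules that is moved by dynein arms. Transcripts for axonemal proteins are translated in the cytoplasm, whereas those for membrane and secreted proteins are mostly translated on the endoplasmic reticulum (ER). Some noncoding RNAs, *Malat1* and *Neat1* among them, stay in the nucleus. The mitochondrial genome encodes 13 proteins, whose mRNAs are made and kept inside mitochondria. Levels of these classes of RNA therefore bear on different compartments of a cell. Values are given as UMIs (unique molecular identifiers, each a count of 1 captured molecule), as the share of a cell's UMIs, or as counts per 1000000 UMIs (CPM).

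The name was set beside markers. All 6 genes listed as marking the cluster, *1700024G13Rik*, *Stmnd1*, *Fam183b*, *Sntn*, *Dynlrb2* and *Tppp3*, had their highest level among the 16 clusters in Multiciliated4. They had been listed with earlier results of these data known, so this ranking is no test of the name. Of general multiciliated genes, *Cfap126* was at 1496 CPM against 711 in Multiciliated3 and *Tubb4b* at 3759 against 2766 (mean of 5 mice). The others were lower than in Multiciliated3. *Foxj1*, the transcription factor of motile ciliogenesis, was at 190 against 347 CPM, *Ccdc39* at 194 against 277 CPM and *Dnah5* at 170 against 651 CPM. *Foxj1* was highest in Multiciliated2, at 716 CPM over all cells of that cluster. Summed markers of secretory cells were lower than in Multiciliated3, whereas those of basal cells overlapped between the clusters. Among 13 secretory markers, the summed level was 968 to 3458 CPM per mouse, against 5459 to 8072 in Multiciliated3. *Bpifb1*, *Muc5b*, *Muc5ac* and *Chil4* were at 0. The first 3 were at 0.0771 CPM or less in Multiciliated3 too, so their zeros separate the clusters little. Not all markers were lower: *Scgb3a2* was at 88.2 CPM against 63.9 in Multiciliated3 (mean of 5 mice). *Bpifa1* was higher in mouse MT1383 only, at 654.2 against 149.1 CPM. *Cyp2f2* was at 461.2 against 3541.3 CPM (mean of 5 mice). Of 10 basal markers, *Trp63* and *Dlk2* were at 0, with sums of 159 to 856 CPM against 335 to 645. In Multiciliated3 these genes were at only 0.989 and 0.292 CPM. Of 17 markers of neuroendocrine cells, ionocytes, tuft, immune, mesenchymal and red cells, 11 were at 0, including *Chga*, *Calca*, *Foxi1*, *Cftr* and *Ptprc*. In Multiciliated3 the genes named here were at 2.36 CPM or less. Most of the remaining sum was *Lyz2*, at 344 CPM in Multiciliated4 and 1342 CPM in Multiciliated3. Over the 5333 genes compared, the Multiciliated4 profile was nearest to that of Multiciliated3 (Spearman's rho = 0.647 across genes), followed by Multiciliated2 (0.616). These genes had been chosen by their level in Multiciliated4 and Multiciliated3, which favours this order, so it is no test of the name. Of all cells, 134 had a barcode that was found in more than 1 library, and 1 of these was a Multiciliated4 cell. Summed over a mouse, Multiciliated4 held between 81811 and 616216 UMIs.

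Sequences of 4 transcripts, chosen with their ratios known, illustrate the contrast described below and are no evidence for it. They encode the most hydrophobic stretch of a protein whose transcript was kept or lost. They are transcript sequence of GENCODE M21 on GRCm38, written 5′ to 3′, and are coding throughout except the first bases of *1700024G13Rik*, where the flank begins just before the start codon. Capitals mark the 57 bases that encode the most hydrophobic 19 residues, with 9 flanking bases on each side. The first is at chr14:32388281-32388355 on the minus strand, within 1 exon of *1700024G13Rik*. The next spans an exon junction of *Cox7b*, a subunit of mitochondrial complex IV, and extends over chrX:106019647-106021763 on the plus strand with the intron included. *Slc6a6*, the taurine transporter, is shown at chr6:91752368-91752442 on the plus strand, within 1 exon. *Cdh1*, E-cadherin, is shown across a junction on the plus strand at chr8:106664387-106665431, again with the intron included.
1700024G13Rik: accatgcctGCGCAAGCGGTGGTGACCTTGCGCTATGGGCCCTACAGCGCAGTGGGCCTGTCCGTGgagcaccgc
Cox7b: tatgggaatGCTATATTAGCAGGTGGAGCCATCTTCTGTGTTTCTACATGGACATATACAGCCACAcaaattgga
Slc6a6: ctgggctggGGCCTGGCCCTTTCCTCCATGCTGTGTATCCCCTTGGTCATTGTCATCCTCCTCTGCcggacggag
Cdh1: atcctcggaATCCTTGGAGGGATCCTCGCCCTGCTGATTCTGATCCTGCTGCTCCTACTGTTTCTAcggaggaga
On the Kyte-Doolittle scale, on which a larger value is more hydrophobic, the mean over these residues was 0.763 for *1700024G13Rik* and 1.21 for *Cox7b*. It was 2.62 for *Slc6a6* and 3.35 for *Cdh1*. The transcripts of *1700024G13Rik* and *Cox7b* have 850 and 1001 bases, and length was not matched in this choice.

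Over all mice together, Multiciliated4 had the lowest median UMIs of the 16 clusters. The median cell had 10197 UMIs (range 6813 to 25225) and 2898 detected genes (2506 to 4809). In Multiciliated3 the medians were 26359.5 UMIs and 5993.5 genes. Neuroendocrine cells, the next lowest cluster, had 10351 UMIs and 3735 genes, but 108 of these 163 cells came from mouse MT1383, the shallowest library for Multiciliated3 and Multiciliated4. Their median by mouse was 19636.5, 11274 and 16134 UMIs in *WT/WT* mice 1, 2 and 3 and 14553, 16989 and 9400.5 in mice MT1301, MT1306 and MT1383, which was above that of Multiciliated4 except in *WT/WT* mouse 2. By mouse, the median Multiciliated4 cell had 10868.5, 11628 and 10254 UMIs in *WT/WT* mice 1, 2 and 3, and 8922, 11055.5 and 8355 in *MIS/MIS* mice MT1301, MT1306 and MT1383. Each of these 6 values lay below every Multiciliated3 median, the lowest of which was 20098 in mouse MT1383. The authors removed cells with fewer than 2500 genes, and 139 of the 146 cells lay below the 5th percentile of Multiciliated3 in detected genes, so the cluster lies against that limit and any cells of this kind under it were not analysed here.

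The difference in detected genes was also present at equal depth. After each cell was thinned to 5000 UMIs, which all cells of both clusters had, the median was 1959 genes in Multiciliated4, 2375.5 in Multiciliated3 and 2340 in neuroendocrine cells. The medians of the 6 mice ranged from 1914.5 to 2007 in Multiciliated4 and from 2353 to 2395 in Multiciliated3, with no overlap. An additional set of 146 Multiciliated3 cells, each chosen from the same mouse as the nearest in UMIs to a Multiciliated4 cell, had a median of 2346.5 genes at equal UMIs. Few Multiciliated3 cells were this shallow, and the matched cells still had more UMIs (median 15730.5) than the Multiciliated4 cells.

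**Figure D1:**
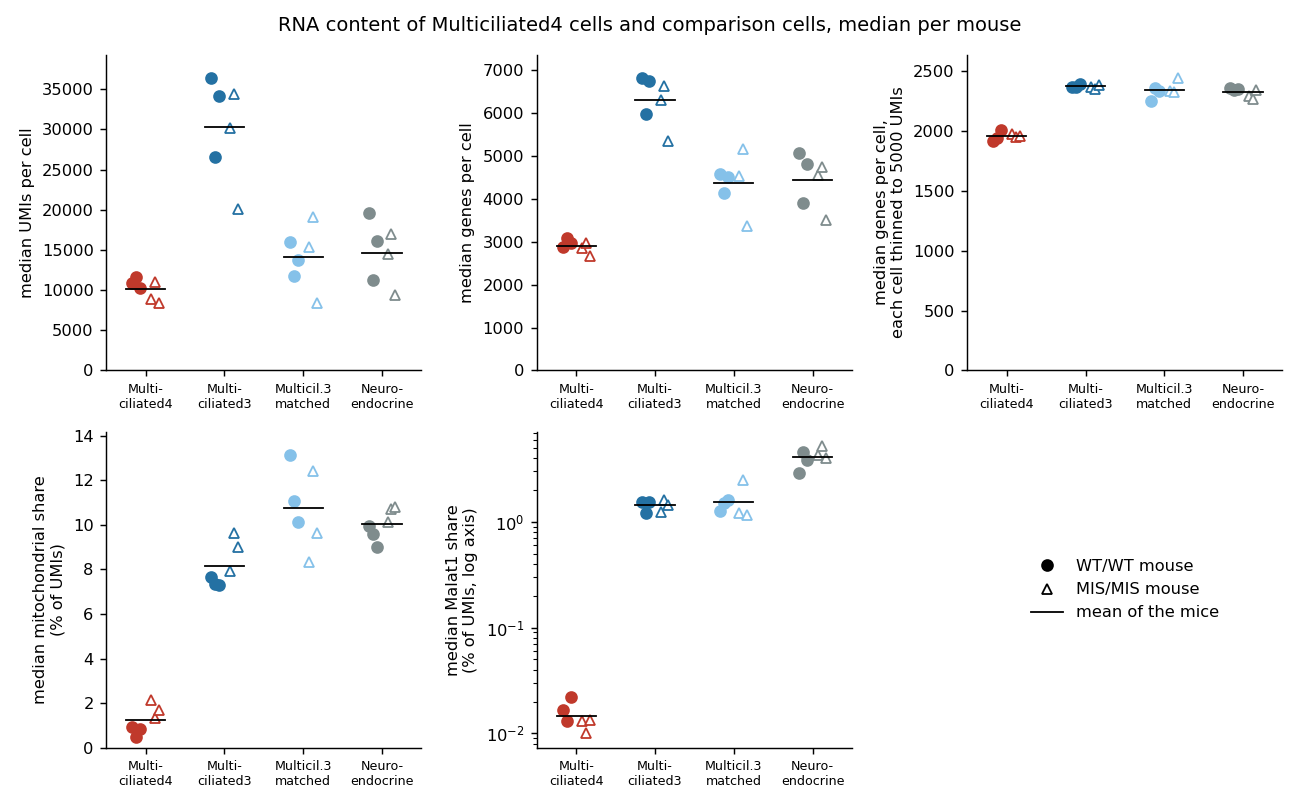
Median UMIs, detected genes, detected genes at 5000 UMIs, mitochondrial share and *Malat1* share (percent of UMIs, log axis) of 4 sets of cells, with filled circles for *WT/WT* mice, open triangles for *MIS/MIS* mice and a line at the mean of the mice. Multiciliated4 has the lowest mean over mice for each measure, and at 5000 UMIs its mice lie between 1914.5 and 2007 genes, where Multiciliated3 lies between 2353 and 2395.

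Mitochondrially encoded mRNAs and *Malat1* were both scarce. The mitochondrial share was 1.29% of UMIs in the median Multiciliated4 cell (range 0.106 to 21.95), the lowest of the 16 clusters, and Multiciliated3 was next at 8.51%. The median by mouse was 0.918%, 0.472% and 0.840% in the *WT/WT* mice and 2.16%, 1.32% and 1.70% in the *MIS/MIS* mice, and the Multiciliated3 medians lay between 7.29% and 9.62%. *Malat1*, a long nuclear noncoding RNA and one of the most abundant transcripts of most cells, took 0.0133% of UMIs in the median Multiciliated4 cell, or 2 UMIs, and 1.42%, or 375 UMIs, in the median Multiciliated3 cell. The next lowest cluster was Multiciliated2, at 1.01%. The Multiciliated4 medians of the 6 mice lay between 0.00999% and 0.0219%, and those of Multiciliated3 between 1.21% and 1.61%. The UMI-matched Multiciliated3 cells had a median *Malat1* share of 1.6% and a mitochondrial share of 10.99%. The neuroendocrine cells had 3.96% and 10.5%, with medians by mouse of 2.88% to 5.20% *Malat1* and 9.02% to 10.8% mitochondrial UMIs.

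More Multiciliated4 cells lay in the lowest part of the Multiciliated3 range in *Malat1* than in mitochondrial UMIs. Below the 5th percentile of Multiciliated3 lay 144 of 146 in *Malat1* and 111 in mitochondrial share. With limits of 0.1% for *Malat1* and 3% for mitochondrial UMIs, set after seeing the data, 143 of 146 Multiciliated4 cells (97.9%) and 20 of 2712 Multiciliated3 cells (0.737%) were under the first. Of the 21013 cells of all other clusters, 27 (0.128%) were. Under the second limit lay 113 Multiciliated4 cells (77.4%) and 149 Multiciliated3 cells (5.49%). All 113 of the former were also low in *Malat1*, whereas the 149 Multiciliated3 cells had a median *Malat1* share of 1.77% and 5 of them were low in both. Across the whole series outside Multiciliated4, 12 of 23725 cells were low in both.

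The remaining Multiciliated4 cells differed from the rest in part. The 33 cells at or above 3% mitochondrial UMIs had a median mitochondrial share of 6.40%, but their median *Malat1* share was 0.0117%, close to the 0.0136% of the other 113 cells. Their nuclear-encoded respiratory chain transcripts took 5.89% of UMIs, against 7.08% in the 113 cells and 3.30% in Multiciliated3. Only 3 cells had 0.1% *Malat1* or more. They were a cell of *WT/WT* mouse 3 with 4.40% *Malat1* and 14.7% mitochondrial UMIs, a cell of mouse MT1383 with 4.04% and 20.8%, and a cell of mouse MT1306 with 0.151% and 3.67%. The next highest cell had 0.0734%.

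**Figure D2:**
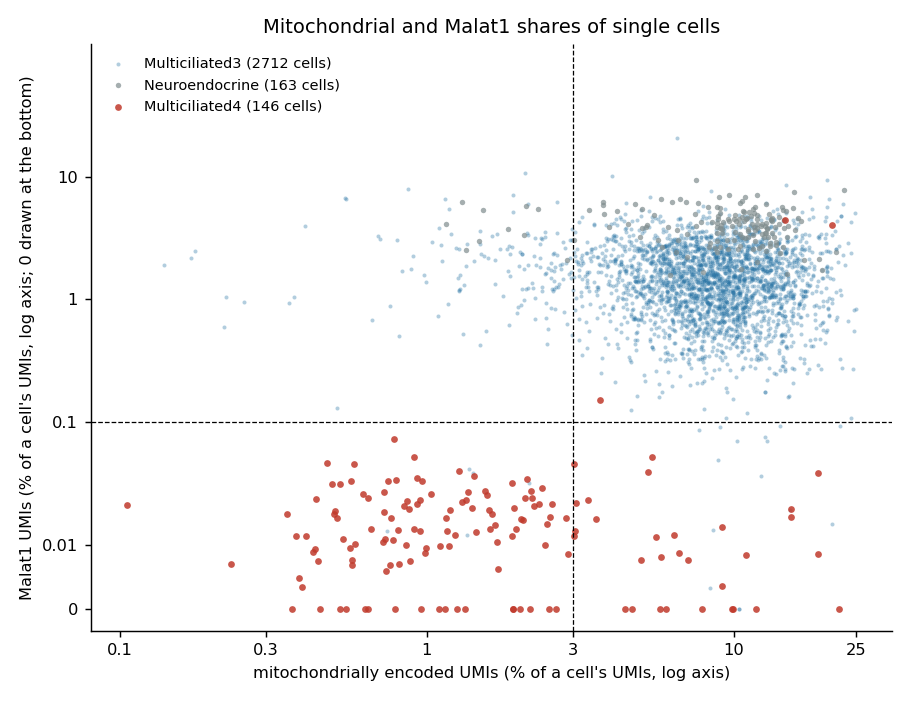
Each point is 1 cell, placed by its mitochondrial share and its *Malat1* share (both percent of the cell's UMIs on log axes, with cells at 0 *Malat1* drawn at the bottom), for Multiciliated4, Multiciliated3 and neuroendocrine cells. Of 146 Multiciliated4 cells, 143 lie under the dashed line at 0.1% *Malat1*, and 113 lie also to the left of the dashed line at 3% mitochondrial UMIs.

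To ask which transcripts were kept, UMIs were summed per mouse and cluster, and the log2 ratio of CPM, Multiciliated4 over Multiciliated3, was taken within each mouse. This is a ratio per UMI, and it is given as the mean ± SD of 5 mice, since the 6 cells of *WT/WT* mouse 2 were too few. Among the 5333 genes with a mean of at least 25 CPM, 251 genes (4.71%) were more than 2-fold higher in Multiciliated4 with the same sign in each mouse, and 1507 (28.3%) were lower by the same rule. The median ratio of all genes was -0.185. The split depended on the scale and on the CPM minimum. TMM scaling, which centres the bulk of genes, moved this median to 0.0317 and gave 713 genes higher and 1241 lower. Among the 1727 genes of at least 100 CPM the median was above 0, at 0.467, with 167 genes higher and 275 lower. With a minimum of 10 CPM it was -0.446, with 295 of 8263 genes higher and 2622 lower. With each cell thinned to 5000 UMIs, 314 of 5360 genes (5.86%) were higher and 1424 (26.6%) lower. Against the UMI-matched Multiciliated3 cells, 653 of 5482 genes (11.9%) were higher and 1648 (30.1%) lower. Of the 251 genes, 225 (89.6%) were also higher against the matched cells, and of the 1507 genes, 1386 (92.0%) were also lower. No gene (0) was called in opposite directions in the 2 comparisons. The 251 genes took 17.3% of Multiciliated4 UMIs and 7.92% of Multiciliated3 UMIs. The 1507 genes took 8.03% and 29.1%.

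Counted per cell rather than per UMI, the genes higher in Multiciliated4 lay near equal numbers, which follows from the rule of the calls. The ratio per cell is the ratio per UMI scaled by the depth ratio of the clusters in each mouse. A call past 2-fold per UMI therefore also limits the ratio per cell. The mean Multiciliated4 cell had 0.331, 0.318, 0.328, 0.344 and 0.445 times the UMIs of the mean Multiciliated3 cell in *WT/WT* mice 1 and 3 and *MIS/MIS* mice MT1301, MT1306 and MT1383. The median gene was at 0.308 times its Multiciliated3 number. The 251 genes higher per UMI had a median of 0.754, with a range from 0.701 to 1.35, and the 1507 lower genes had a median of 0.107. Of the 5333 genes, 1360 fell below a ratio of 0.25 in each mouse and 253 below 0.1. None (0 genes) had more molecules per cell in Multiciliated4 in each of the 5 mice.

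**Figure D3:**
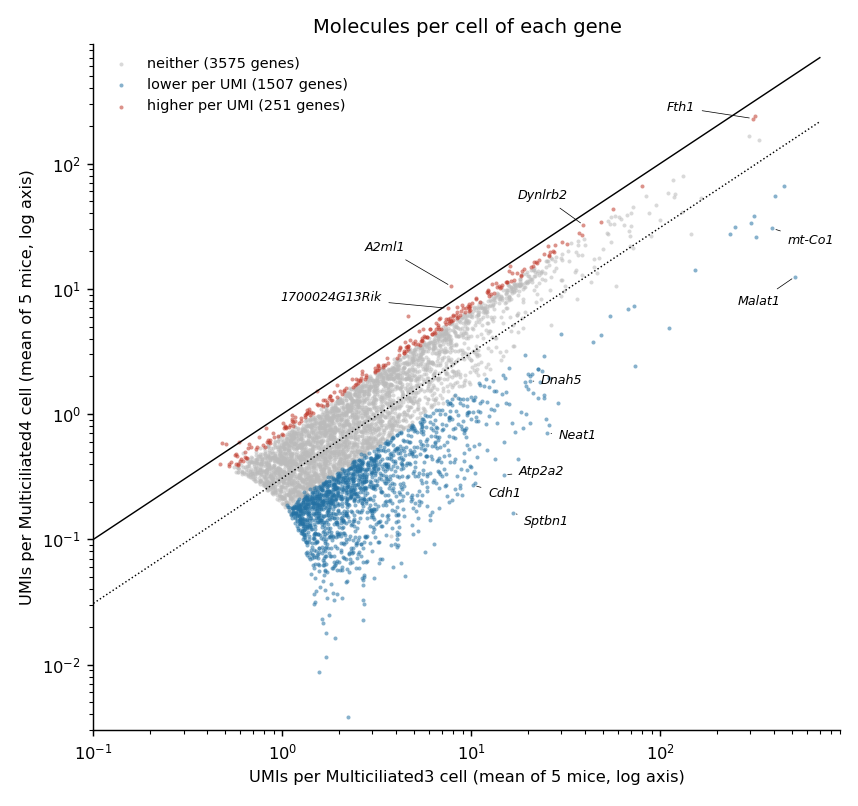
Mean UMIs per Multiciliated4 cell against mean UMIs per Multiciliated3 cell (both log axes, mean of 5 mice) for each gene tested with at least 1 UMI in Multiciliated4, with the genes higher per UMI in red and those lower per UMI in blue. The solid line marks equal numbers and the dotted line the median ratio of 0.308. The red points lie near the solid line, most of them under it, and the blue ones under the dotted line, as follows from the rule of the calls.

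The listed markers had ratios above 0. They had been listed with earlier results of these data known, so these ratios are descriptions and no evidence of which transcripts were kept. *1700024G13Rik*, which encodes a ciliated cell protein of 93 residues, was at 598, 941 and 586 CPM in Multiciliated4 of *WT/WT* mice 1, 2 and 3 and at 658, 695 and 706 CPM in mice MT1301, MT1306 and MT1383. In Multiciliated3 it was at 201, 242, 233, 224, 278 and 276 CPM in the same order. The clusters did not overlap, and the ratio was 1.43 ± 0.13 (SD, n = 5 mice). Its number per cell was nearly the same, with 6.99 UMIs in Multiciliated4 and 7.50 in Multiciliated3. At 5000 UMIs per cell, 92.5% of Multiciliated4 cells had a UMI of it and 67.2% of Multiciliated3 cells, against 2.45% of neuroendocrine cells, a cell type without motile cilia (median depths before thinning 10197, 26359.5 and 10351 UMIs).

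*Dynlrb2*, a dynein light chain of the roadblock family, was between 2541 and 3224 CPM in Multiciliated4 and between 1086 and 1344 CPM in Multiciliated3 (ratio 1.25 ± 0.12), with 32.3 and 39.2 UMIs per cell. *Fam183b* (1.31 ± 0.17), *Stmnd1* (1.16 ± 0.29) and *Sntn* (1.06 ± 0.06), which encodes sentan of the ciliary tip, were also called higher. *Tppp3*, a tubulin polymerization promoting protein, was at 2899 and 2249 CPM (0.36 ± 0.14) and was not called, and its number per cell was 31.5 against 70.5. Thus 5 of the 6 markers were called higher per UMI, and *Tppp3* was nearer to the general loss.

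The 12 highest ratios included further small proteins but were led by a large one. *A2ml1*, a protease inhibitor of the macroglobulin family, was at 1.95 ± 0.45, with 330 to 1211 CPM in Multiciliated4 and 212 to 294 CPM in Multiciliated3. It had 10.5 UMIs per Multiciliated4 cell and 7.82 per Multiciliated3 cell. Its protein has 1456 residues with a highest Kyte-Doolittle mean of 1.78, and its transcript 4695 bases. Over all cells of a cluster, Multiciliated4 was at 909 CPM and Secretory1 was next at 399 CPM. *AY036118* (1.93 ± 0.35) lies within the ribosomal RNA locus, and its ratio against the UMI-matched cells was 0.98, under the limit. *Pcp4l1*, *Pcbd1*, *Mt3*, a metallothionein, and *Snrpn*, a spliceosomal protein, had ratios between 1.61 and 1.79, each with fewer than 2 UMIs per cell. *Cox7b*, *Cox7a1*, *Fsip1*, *Dydc2* and *Lcmt1* lay between 1.35 and 1.46. Against the UMI-matched cells, *Vpreb3* (1.87), *Smim27* (1.85), *Upp2* (1.76), *Gstp2* (1.76), *0610010K14Rik* (1.73) and *Bmyc* (1.73) were also among the highest. *Gstp2* has near-identical paralogs, so its count is uncertain.

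The nuclear-encoded and mitochondrially encoded parts of the respiratory chain moved apart. Of 79 nuclear genes for its subunits, 46 were called higher and 0 lower, with a median ratio of 1.03 (all genes -0.185). They took 6.87% of UMIs in the median Multiciliated4 cell, the highest of the 16 clusters, followed by ionocytes at 5.13% and against 3.30% in Multiciliated3. *Cox7b* was at 1459, 1626 and 1365 CPM in the *WT/WT* mice and at 1346, 1495 and 1392 CPM in the *MIS/MIS* mice, and at 467 to 543 CPM in Multiciliated3, a ratio of 1.46 ± 0.13. It kept 15.3 UMIs per cell against 16.1. *Ndufc1* of complex I (1.31 ± 0.06), *Uqcrb* of complex III (1.23 ± 0.06) and *Atp5e* of ATP synthase (1.18 ± 0.08) were called higher as well. Of the 79 genes, 77 had a ratio above 0. *Sdha* of complex II (-0.07 ± 0.35) and *Atp5a1* of ATP synthase (0.03 ± 0.22) were near 0, and *Cox4i1* of complex IV was at 0.49 ± 0.11, none of them called.

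Of the 13 mitochondrially encoded protein genes, 12 were called lower and 0 higher, with a median ratio of -1.58. *mt-Co1*, which encodes the catalytic subunit of complex IV, was at 1703, 1088 and 1777 CPM in Multiciliated4 of the *WT/WT* mice and at 2527, 3789 and 4467 CPM in the *MIS/MIS* mice. In Multiciliated3 it lay between 10606 and 14653 CPM, and the ratio was -2.25 ± 0.48. The Multiciliated4 cells kept 30.3 UMIs of it per cell where Multiciliated3 had 393.1, while *Cox7b* of the same complex was nearly at the same number. *mt-Nd6*, at 38.1 and 56.7 CPM (-0.67 ± 0.88), was the exception. Other nuclear genes for mitochondrial proteins followed the nuclear respiratory chain in lists drawn up after seeing the data. Of 73 mitochondrial ribosomal proteins, 12 were called higher and 0 lower (median 0.86), and of 19 import proteins, 3 and 0 (median 0.82). *Chchd10*, of the mitochondrial intermembrane space, had a ratio of 1.26 ± 0.13.

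Other small and abundant cytosolic transcripts were higher per UMI without most of them passing 2-fold, and fewer per cell. The median ratio per cell was 0.594 for cytosolic ribosomal proteins and 0.566 for proteasome subunits (all genes 0.308). Of 80 cytosolic ribosomal proteins, 3 were called higher and 0 lower, a share below the 4.71% of all genes in number of calls, but with a median of 0.76 and a range by mouse of 0.70 to 0.87. Of 34 proteasome subunits, 1 was called higher (median 0.69). In the list of ferritin, iron and redox genes, 3 of 23 were called higher and 1 lower. *Fth1* and *Ftl1*, the ferritin chains that store iron, were at 21099.7 and 22056 CPM in Multiciliated4, and *Fth1* kept 228.7 UMIs per cell against 309.5 in Multiciliated3 (ratio 1.09 ± 0.12). *Prdx5*, a peroxiredoxin, had a ratio of 1.21 ± 0.13. Actin cytoskeleton genes (median 0.18) and heat shock proteins (-0.11, with the opposite sign under TMM scaling) stood near 0.

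Nuclear-retained noncoding RNAs had the lowest median of the lists. Of 5 measured, 4 were called lower (median -3.79). *Malat1* summed over the cells was at 145, 134 and 2466 CPM in *WT/WT* mice 1, 2 and 3 and at 154, 156 and 3243 CPM in mice MT1301, MT1306 and MT1383, against 13675 to 18159 CPM in Multiciliated3. The 2 high values came from 1 cell each, with 579 and 662 *Malat1* UMIs, which spread the ratio to -5.06 ± 2.29. With Multiciliated4 cells of at least 0.1% *Malat1* left out, it was -6.71. *Neat1*, of the nuclear paraspeckles, was at 24.4 to 138.5 CPM against 712 to 987 CPM (-3.79 ± 0.84), and *Kcnq1ot1*, an imprinted antisense RNA, at 8.70 and 204.3 CPM. The kit's strand setting in the authors' counting was not given in the sources used here, so reads of *Kcnq1ot1* and of the gene it overlaps may not be told apart. *Gm42418*, which overlaps the ribosomal RNA locus, was at 3227 and 3079 CPM (0.05 ± 0.37).

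Transcripts of membrane proteins made on the ER were scarce. Of 284 plasma membrane and vesicular carriers, ion pumps and ABC transporters, a list drawn up after seeing the data, 41 passed the CPM filter. Of these, 37 were called lower and 0 higher, with a median of -2.74. Members could enter by their level in Multiciliated3 alone, so this count is no test of the list. Summed over all 284 genes, the level was 1290 CPM in Multiciliated4 and 8010 CPM in Multiciliated3 (mean of 5 mice). *Slc6a6* was at 41.9, 24.4 and 31.7 CPM in the *WT/WT* mice and at 39.9, 32.5 and 60.7 CPM in the *MIS/MIS* mice, against 525 to 604 CPM in Multiciliated3 (-3.75 ± 0.39). *Atp2a2*, the calcium pump of the ER, was at 22.9 to 48.9 CPM against 449.5 to 543 CPM (-3.9 ± 0.18). In contrast, the carriers of the inner mitochondrial membrane, also proteins with several membrane segments, had a median of 0.03, with 1 of 15 called higher and 2 lower. That median changed sign in 5 of the alternative settings. *Slc25a4* and *Slc25a5*, the adenine nucleotide carriers, were at 0.98 ± 0.09 and 0.88 ± 0.13.

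The machinery of the ER itself was lower. Of 29 genes for ER translocation and chaperones, 20 were called lower and 0 higher (median -2.01). *Hspa5*, the main ER chaperone, was at 30.5 to 112.1 CPM in Multiciliated4 and at 547 to 684 CPM in Multiciliated3 (-3.09 ± 0.64), and *P4hb*, *Canx* and *Sec61a1* had ratios between -3.36 and -2.97. The 4 members with positive ratios, *Srp9*, *Srp14*, *Sec61b* and *Sec61g*, encode small cytosolic or tail-anchored proteins and had ratios between 0.79 and 0.85. Of 12 genes listed for MHC class I and antigen processing, 5 passed the CPM filter. All 5 were called lower (median -1.93), with *B2m* at 61.0 and 218.5 CPM.

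Junction and adhesion genes were lower as well, with 15 of 20 called lower and 0 higher (median -2.07). *Cdh1* was at 7.62, 24.4 and 23.7 CPM in the *WT/WT* mice and at 34.9, 29.2 and 32.7 CPM in the *MIS/MIS* mice, against 313 to 349 CPM in Multiciliated3 (-3.71 ± 0.76). The 5 members that were not called, *Ctnna1*, *Jup*, *Tjp1*, *Tjp3* and *Pkp3*, encode cytoplasmic plaque proteins and had ratios between -0.95 and -0.49. Other plaque proteins were called lower, among them *Ctnnb1* (-1.17 ± 0.09) and *Dsp* (-2.24 ± 0.65). The whole set of cells had been taken off the membrane with trypsin, and the part of that step in these levels was not tested.

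Among the lowest single genes were several of long transcripts. *Sptbn1*, a spectrin of the membrane skeleton, was at 15.4 CPM against 531.3 CPM (-5.09 ± 0.84), or 0.162 UMIs per cell against 16.6. *Plec*, *Il6st*, *Thbs1* and *Kcnq1ot1* had ratios between -4.70 and -4.48, on 6 to 12 UMIs in all Multiciliated4 cells, so the size of these ratios depends on the prior count. *Clca3a2*, *S100g*, *Muc16*, *Zdhhc20* and *Mia3* rested on 1 to 4 UMIs and *Gm26532* on 0, so no ratio is given for them. In Multiciliated3 they lay between 51.1 and 85.6 CPM. Against the UMI-matched cells, *Tmem67*, *Atf6*, *Clca3a1*, *Cpd*, *Ceacam1* and *Cxadr* were also among the lowest, each with 12 or fewer UMIs in Multiciliated4. The *Clca3a* genes are near-identical neighbours, so their counts are uncertain.

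The lists of dynein chains differed from each other. Axonemal dynein heavy chains, the motor subunits, were lower for 8 of 9 genes (median -1.71). *Dnah5* of the outer arm was at 145 to 202 CPM in Multiciliated4 and at 556 to 742.5 CPM in Multiciliated3 (-1.93 ± 0.33), with 1.83 and 20.4 UMIs per cell, and *Dnah9* had a ratio of -2.19 ± 0.73. *Dnah7a* was called higher (1.02 ± 0.41, at 50.7 and 25.9 CPM), but it has near-identical paralogs, and *Dnah7b* was lower (-1.71 ± 0.48). Among 15 intermediate and light chains, 3 were called higher and 0 lower (median 0.75): *Dynlrb2*, *Dynlrb1* (1.04 ± 0.17) and *Dynlt1f* (1.19 ± 0.18), the last also with near-identical paralogs. These 3 are light chains of families that cytoplasmic dyneins also use, so the calls are not particular to the axoneme. *Dynlrb2* is also a marker listed with earlier results known. *Dnali1*, of the inner arm, was at 0.56 and not called. Dynein assembly factors stood between, with a median of 0.38. *Dnaaf5* was the only 1 of 16 called, and it was lower (29.3 and 70.4 CPM, -1.19 ± 0.27), although against the UMI-matched cells it was at -0.86 and not called.

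In the other axonemal lists the share of genes called lower was at or below the 28.3% of all genes. In the radial spoke and central pair list, 1 of 18 was called higher and 5 lower (median -0.43). *Rsph1*, a small spoke head protein, was higher (1.10 ± 0.10), and *Hydin* (-1.6 ± 0.24) and *Cfap54* (-1.87 ± 0.36), large proteins of the central pair, were lower. Microtubule inner proteins and tektins had a median of 0.60, with 2 of 22 called higher, *Cfap126* (1.07 ± 0.10) and *1700013F07Rik* (1.12 ± 0.10), and 0 lower. In the nexin-dynein regulatory complex and rulers, 1 of 20 was higher and 4 were lower (median -0.55), and *Ccdc39*, a ruler of the axonemal repeat, was at -0.51 ± 0.29. In intraflagellar transport, 1 of 35 was higher (*Hspb11*, 1.03 ± 0.23) and 4 were lower, with *Dync2h1*, the motor heavy chain, at -2.72 ± 1.33. The medians of that list (-0.03) and of the 7 tubulins (-0.12) changed sign in 7 and 8 of the alternative settings, TMM scaling among them. *Tubb4b*, the main axonemal beta-tubulin, was at 3759 and 2766 CPM (0.44 ± 0.18).

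Of 39 measured small late ciliary genes, a list that includes the 6 markers, 13 were called higher and 2 lower (median 0.81). The markers had been listed with earlier results of these data known, and all but *Tppp3* are among the 13. The 2 lower ones were *Cdhr3* (-3.25 ± 0.64) and *Cdhr4* (-3.18 ± 0.55), both cadherin-related membrane proteins. Of 24 regulators of multiciliogenesis, 7 passed the CPM filter, which members could do by their level in Multiciliated3 alone. Of these 7, 5 were called lower (median -1.48): *Myb*, *Rfx2*, *Rfx3*, *Grhl2* and *Ulk4*, at 25.1 to 35.8 CPM. Summed over all 24 genes, the level was 472 CPM in Multiciliated4 and 1011 CPM in Multiciliated3 (mean of 5 mice). *Foxj1* was between 159 and 226 CPM in Multiciliated4 and between 333 and 367 CPM in Multiciliated3, without overlap, and its ratio of -0.87 ± 0.21 did not reach 2-fold. Other regulatory groups differed among themselves. Of 17 immediate early genes, 11 were called lower (median -1.38), with *Fos* at 98.9 and 420 CPM, *Egr1* at 61.8 and 255 CPM and *Jund* at 756 and 597 CPM. Of 340 zinc finger transcription factors, 35 passed the CPM filter. Of these 35, 15 were called lower and 1 higher (median -0.61), a larger share lower than the 28.3% of all genes. Of 77 splicing and nuclear RNA-binding genes, 10 were called lower and 2 higher, fewer than the 28.3% and 4.71% of all genes. The median of that list was -0.07, with the opposite sign under TMM scaling and among genes of at least 100 CPM.

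**Figure D4:**
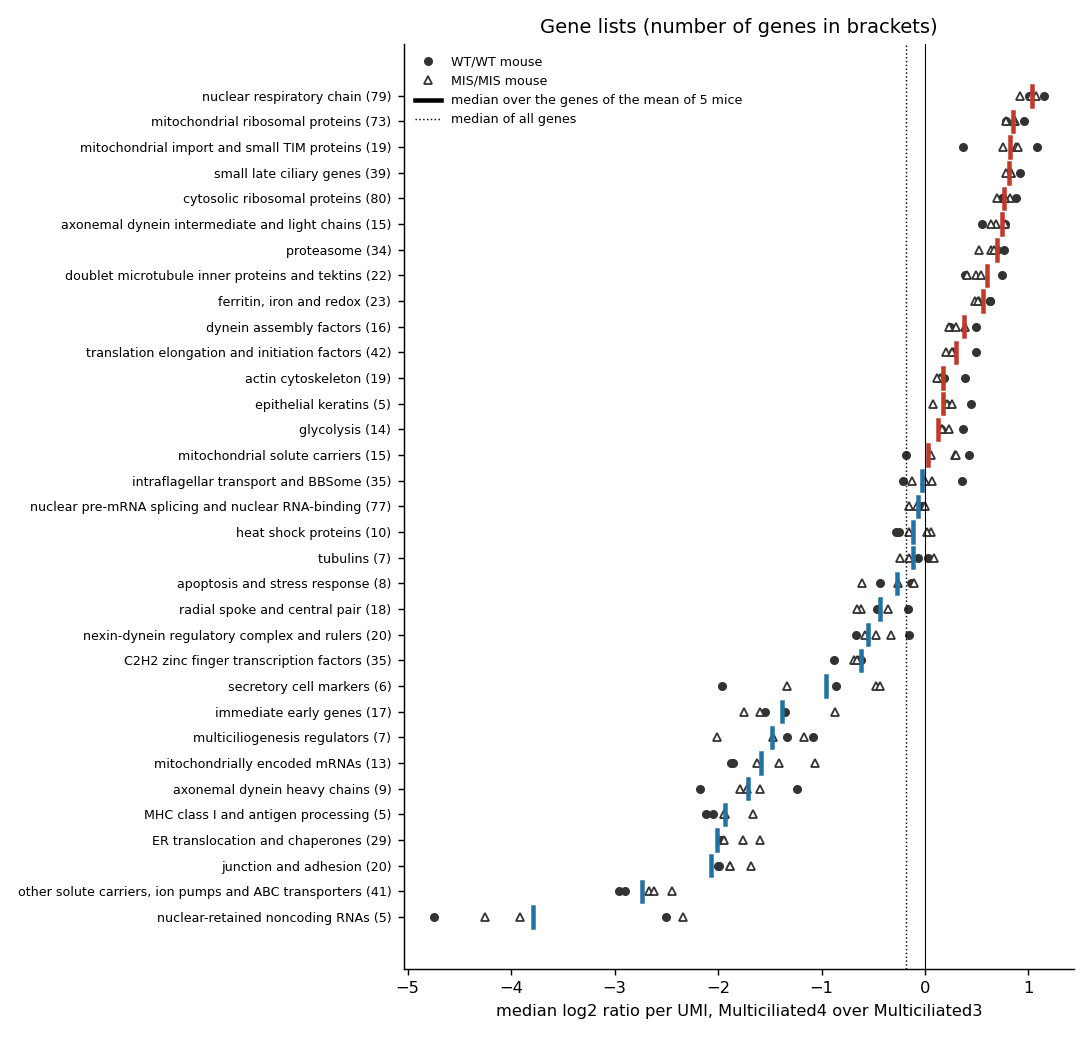
Median log2 ratio per UMI, Multiciliated4 over Multiciliated3, of each gene list (number of genes in brackets), with points for the median in each of 5 mice, a bar for the median over genes of the 5-mouse mean, and a dotted line at the median of all genes (-0.185). The nuclear respiratory chain is the highest list at 1.03 and the nuclear-retained noncoding RNAs the lowest at -3.79.

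The ratio followed the length of the transcript. Among 5218 nuclear protein-coding genes with an annotated transcript, Spearman's rho of the ratio with transcript length was -0.634 across genes, and it lay between -0.623 and -0.579 in the single mice. Genes are not independent replicates and share the libraries, so no p is given. The rho with coding length was -0.620, with the length after the stop codon -0.391 and with GC content 0.0966. Among the 1682 genes with at least 100 CPM, rho with length was -0.606. Genes called higher had a median transcript of 915.5 bases, those called neither way 2248 bases and those called lower 4412 bases. 1 annotated transcript was used per gene, and the form present in these cells was not measured.

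Hydrophobicity of the encoded protein went with the ratio as well, within classes of length. A hydrophobic window, meaning 19 residues with a mean of at least 1.6 on the Kyte-Doolittle scale, as in a membrane segment or signal peptide, was found for 1342 genes. Of these, 28 were called higher and 759 lower (56.6%), with a median of -1.28. Of the 3876 genes without it, 208 were higher and 717 lower (18.5%), with a median of 0.0524. Among transcripts under 1000 bases, the medians without and with a window were 0.844 and 0.499. From 1000 to under 1500 bases they were 0.682 and -0.362, and from 1500 to under 2000 bases 0.353 and -1.10. At 5000 bases or more they were -1.15 and -1.81. With stricter limits of 2.0 and 2.5 for the window, the medians were -1.75 and -2.22. The rho of the ratio with the highest window was -0.455, and -0.463 against the UMI-matched cells.

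Genes of the mitochondrial lists other than the carriers stood outside this relation. Of the 1342 genes with a window, 31 belonged to the lists of nuclear respiratory chain, mitochondrial ribosome and import genes. 13 of them were called higher and 0 lower, with a median of 0.936. The other 1311 had 15 higher and 759 lower, with a median of -1.33. The genes of these mitochondrial lists with a window had a median transcript of 1080 bases, and the 138 without one had nearly the same ratio, 0.924. The carriers of the inner mitochondrial membrane were not in this set. Their median was 0.03, with 1 of 15 called higher and 2 lower. Short transcripts with a window went both ways: of 113 under 1000 bases, 17 were called higher and 19 lower. *Wfdc2*, a secreted antiprotease, was at -1.54 and *Vpreb3* at 1.28, both chosen after their values were seen.

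**Figure D5:**
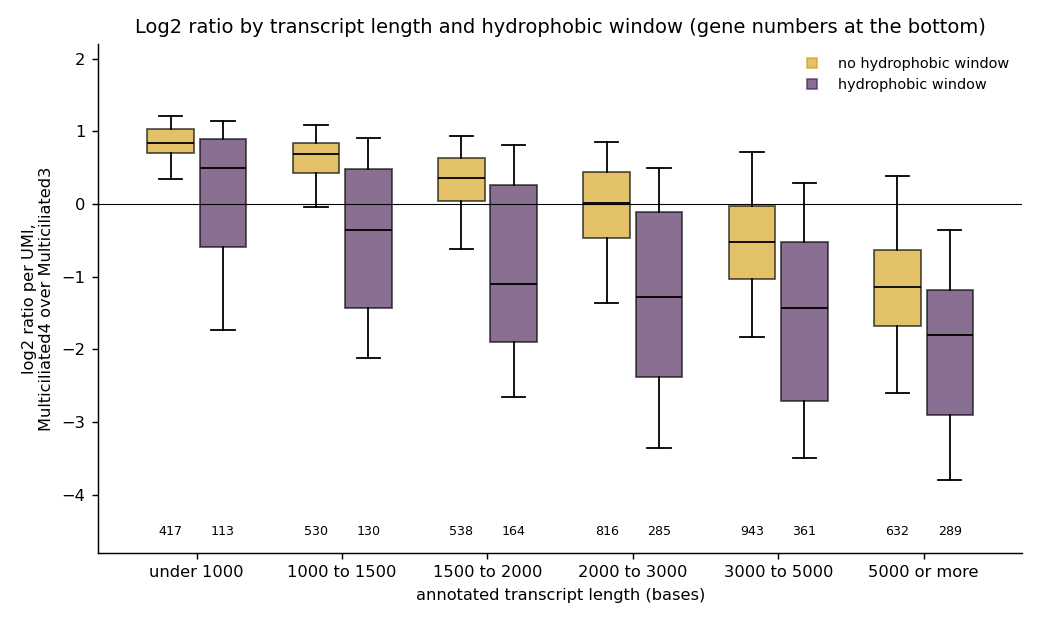
Log2 ratio per UMI, Multiciliated4 over Multiciliated3, by class of annotated transcript length in bases (upper limits not included), for genes whose protein has a hydrophobic window and genes whose protein has none (boxes, quartiles with the median as a line; whiskers, 5th and 95th percentiles; gene numbers at the bottom). The median without a window runs from 0.844 under 1000 bases to -1.15 at 5000 bases or more, and the median with a window is lower in each class.

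Multiciliated4 cells were then compared between genotypes. Their share of multiciliated cells was 6.63%, 1.03% and 5.11% in the *WT/WT* mice and 3.06%, 7.99% and 1.07% in the *MIS/MIS* mice, where the exact 95% binomial intervals reached from 0.379% to 10.3% over the mice and cover counting error only. The groups overlapped and the means were 4.26% ± 2.89 and 4.04% ± 3.56 (SD, n = 3 mice; two-sided exact permutation test, p = 1). The smallest p that 3 mice against 3 allow is 0.1. The difference of -0.217 percentage points changed sign without *WT/WT* mouse 1 (0.968), *WT/WT* mouse 3 (0.211), mouse MT1301 (0.271) or mouse MT1383 (1.27). The median UMIs per Multiciliated4 cell differed by -1473 (*MIS/MIS* minus *WT/WT*; exact permutation p = 0.3, 0.45 adjusted over 3 tests).

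The median mitochondrial share of Multiciliated4 cells did not overlap between genotypes. Its mean over mice was 0.743% ± 0.238 for *WT/WT* and 1.73% ± 0.418 for *MIS/MIS*, a difference of 0.982 percentage points (exact permutation p = 0.1, the smallest possible, and 0.3 adjusted over 3 tests). The Multiciliated3 medians did not overlap either, with 7.44% ± 0.204 and 8.86% ± 0.848 (exact permutation p = 0.1). In cells that were not multiciliated, the median shares overlapped, with 11.6%, 11.1% and 9.90% for the *WT/WT* and 10.2%, 10.9% and 10.5% for the *MIS/MIS* mice.

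Across genes, UMIs summed over the Multiciliated4 cells of each mouse were tested with limma's voom method and Benjamini-Hochberg adjustment. Of 3145 genes, 5 (0.159%) passed an adjusted p of 0.05, all higher in *MIS/MIS*, and 174 had an unadjusted p under 0.05. The mice of the 2 genotypes did not overlap for 315 genes (10.0%). The 5 genes were *mt-Nd2*, *mt-Co1*, *mt-Nd3* and *mt-Nd1*, subunits of complexes I and IV, and *Wdfy1*, an endosomal adaptor. *mt-Nd2* was at 2305, 1137 and 1880 CPM in the *WT/WT* mice and at 3658, 4076.5 and 3752 CPM in the *MIS/MIS* mice (log2 fold change 1.11, standard error 0.163, adjusted p = 0.00855). *mt-Nd1* was at 922, 330 and 788 CPM and at 1585, 1558 and 1841 CPM (1.24, standard error 0.21, adjusted p = 0.0146). All 12 mitochondrially encoded genes that were tested had a fold change above 0 (median log2 1.10), and 8 of them did not overlap between the genotypes. *Wdfy1* was at 11.4, 0 and 27.7 CPM in the *WT/WT* mice and at 89.7, 99.0 and 121.5 CPM in the *MIS/MIS* mice (log2 fold change 2.96, standard error 0.453, adjusted p = 0.00855).

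These calls rested on few cells. Left out in turn, *WT/WT* mouse 3 or mouse MT1383 brought the number of genes past the threshold to 3, *WT/WT* mouse 2 to 9 and mouse MT1301 to 13. limma-trend, which models the spread without weights, gave 0 genes (lowest adjusted p = 0.0595, 150 genes at an unadjusted p under 0.05). Over 10 alternative settings, *mt-Nd2*, *mt-Co1* and *mt-Nd3* passed in 9, *mt-Nd1* in 7 and *Wdfy1* in 4, with adjusted p between 0.00142 and 0.414 for *Wdfy1*. The fold changes kept their sign in these settings. The cluster markers did not pass, with *1700024G13Rik* at a log2 fold change of 0.10 (adjusted p = 0.969) and *Dynlrb2* at 0.20 (adjusted p = 0.918).

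The same fit in Multiciliated3 tested 13096 genes and passed 3. *Wdfy1* was higher there too (log2 fold change 1.94, limma adjusted p = 0.000131). The mitochondrially encoded genes had log2 fold changes between 0.0841 and 0.509, none past the threshold. Whether the genotype difference itself differed between the clusters was tested in a single limma fit with a term for each mouse, chosen after seeing the data. With all Multiciliated3 cells, 0 of 3145 genes passed (141 at an unadjusted p under 0.05, lowest adjusted p = 0.163), and the mitochondrial genes differed by 0.473 to 1.22 on the log2 scale. With the UMI-matched Multiciliated3 cells, 8 genes passed, all of them mitochondrially encoded, with differences between 1.24 and 1.61. In those matched cells the genotype fold change was below 0 for 7 of the 8 genes, down to -0.336 for *mt-Co1*, and above 0 for *mt-Nd3* (0.0792), none past the threshold. The result thus depended on which Multiciliated3 cells were used. The part of cell number, depth and the choice of cells by the authors' filters in these differences was not tested.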

How the data were processed

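UMI counts per cell and the authors' cell table were used as deposited; the processing notes name Cell Ranger 7.1.0 and mm10. The authors kept cells with 2500 to 7500 genes and at most 25% mitochondrial UMIs, named the clusters, and treated doublets by the gene maximum alone, as far as the sources state. Each library was 1 mouse. The members and lists were chosen with earlier results of these data known. UMIs were summed per mouse and cluster, and log2 CPM ratios (prior count 0.5, prior total 1) were taken within each of 5 mice with at least 10 Multiciliated4 cells. A call needed a mean past 2-fold, the same sign in each mouse and a mean of 25 CPM. TMM trimmed a fraction of 0.3 of log ratios and 0.05 of levels. Cells were thinned without replacement. Genotypes were compared with limma 3.58.1 voom in R 4.3.3 for genes with at least 10 counts in a library of median size in 3 mice and 15 in all. Named genes were the markers, the 12 highest and 12 lowest ratios, up to 6 more from the matched cells, extremes and abundant members of lists, *Dnaaf5*, *Wdfy1* and the genotype calls. Python 3.11.15 was used, and the tests were run on simulated data first. The deposited table separates fields by an unusual character pair, and its values were checked to be whole counts.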

Additional observations from a re-analysis of the deposited data

Results flagged for a closer look

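A value far from those of the other mice (Dixon's criterion for 5 mice) was found for 3 of 37 lists and 7 of 63 genes with over 3 UMIs in Multiciliated4; chance flags about 1 in 20 such groups. All values are log2 ratios per UMI, Multiciliated4 over Multiciliated3. In *WT/WT* mouse 1, with 22 Multiciliated4 cells, the list medians were 0.495 for translation factors (others 0.204 to 0.268), -0.88 for zinc finger transcription factors (others -0.69 to -0.62) and 0.39 for actin cytoskeleton genes (others 0.113 to 0.186). In the same mouse, *Ccdc39* was at -1.03 (others -0.444 to -0.285), *Wdfy1* at -1.09 (others -0.356 to -0.1), *Cdh1* at -5.04 (others -3.62 to -3.19) and *Chchd10* at 1.48 (others 1.16 to 1.25). In *WT/WT* mouse 3, *Stmnd1* was at 1.67 (others 0.979 to 1.12). In mouse MT1301, *Cox4i1* was at 0.303 (others 0.503 to 0.58). In mouse MT1383, *Bpifa1*, a secreted protein of airway secretory cells, was at 2.14 (others -0.891 to -0.0692).

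The genotype difference of 8 mitochondrially encoded genes was larger in Multiciliated4 than in the UMI-matched Multiciliated3 cells in a limma fit with a term for each mouse. The difference of the log2 fold changes was 1.42 for *mt-Nd1*, 1.43 for *mt-Nd2*, 1.33 for *mt-Nd3*, 1.54 for *mt-Nd4*, 1.56 for *mt-Nd5*, 1.61 for *mt-Co1*, 1.24 for *mt-Co2* and 1.35 for *mt-Co3*. The limma adjusted p lay between 0.000272 for *mt-Nd2* and 0.0476 for *mt-Co3*. None of these passed when all Multiciliated3 cells were used (lowest adjusted p = 0.163).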

How the results depend on the processing

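The number of genes higher per UMI was 653 against UMI-matched Multiciliated3 cells, 159 against cells matched on mitochondrial share, 713 with TMM scaling and 143 with totals of nuclear genes only. It was 167 among the 1727 genes of at least 100 CPM (251 of 5333 as reported). The number lower was 2622 of 8263 with a minimum of 10 CPM and 275 of 1727 with 100 CPM (1507 of 5333 as reported). The fewer or more genes tested account for part of the values at 10 and 100 CPM, and the other causes were not tested. Without 1 mouse the counts were 234 to 286 higher and 1460 to 1523 lower. Of 70 named genes, 26 moved by more than the spread between mice against UMI-matched cells, 17 with TMM scaling and 5 at equal UMIs. The genotype difference in the share of Multiciliated4 cells was 0.352 percentage points over all cells, opposite in sign, and -2.19 to 1.27 without 1 mouse. The number of genotype calls was 0 with limma-trend, 9 with mice of at least 10 Multiciliated4 cells, which is the fit without *WT/WT* mouse 2, and 3 to 13 without 1 mouse. The median standard error of 0.261 on the log2 scale limits what these few cells could show. No paired analysis was possible because the replicate numbers of *WT/WT* mice and the animal numbers of *MIS/MIS* mice match no pair across genotypes.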

Other observations

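Other gene groups are given as values of the log2 ratio per UMI, Multiciliated4 over Multiciliated3 (all genes, median -0.185). Of 42 translation elongation and initiation factors, 0 were called higher and 4 lower (median 0.30). Of 14 glycolysis genes, 1 was called higher and 0 lower (median 0.13). Of 8 apoptosis and stress response genes, 1 was called lower (median -0.28). None of 5 epithelial keratins was called (0 genes, median 0.17), and the median had the opposite sign against Multiciliated3 cells matched on mitochondrial share. Of 6 measured secretory cell genes, 3 were called lower and 0 higher (median -0.96).

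The noncoding RNAs as a whole did not follow *Malat1*. Of 72 genes annotated as long noncoding RNAs, 14 (19.4%) were called higher and 12 (16.7%) lower, with a median ratio of 0.499 and a median transcript of 1080 bases. The 5 Multiciliated3 cells that were low in both *Malat1* and mitochondrial UMIs had a median of 9308 UMIs and 3101 genes. Their nuclear respiratory chain transcripts took 6.87% of UMIs and their small late ciliary transcripts 1.11%.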
